A study of Macaca mulatta with 10 samples.

Results

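The enzymes that make and guard the deoxynucleotides of DNA were followed in the whole testis of juvenile male rhesus macaques (Macaca mulatta) given gonadotropins. The set was chosen by gene name, with earlier results of these data known. It holds 9 genes: RRM1, RRM2, RRM2B, TYMS, DTYMK, DUT, TK1, DCK and DCTPP1. Of these, 8 have a locus of their own among the 14102 loci that stand for a gene symbol in the deposited count table. RRM1 was present only in a locus that the assembly joined with its neighbour STIM1, whose reads cannot be divided, so its values are given as those of the joint locus and are not counted among the 8. DTYMK had a pair of rows, and the row with the higher mean count was used.

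All animals were wild type and each gave 1 library of total RNA. The vehicle group had 3 animals (TP07 aged 24 months, TP09 aged 14 and TP11 aged 15). The 48 h group received FSH and LH in pulses for 48 h and had 3 animals (TP08 aged 22 months, TP10 aged 14 and TP12 aged 15). The 96 h group received the same hormones for 96 h and had 4 animals (TP15, TP16, TP17 and TP18, all aged 14 months). The labels used here do not say how long vehicle was infused. Animal numbers of the 96 h group are all above those of the other groups, so anything that followed the order of the animals cannot be told apart from the 96 h treatment.

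Library totals over the 26813 loci of the table were 23607039 to 29230966 counts for vehicle, 27824411 to 30375928 for 48 h and 21824233 to 27684954 for 96 h. All libraries held transcripts that mark germ, Sertoli and Leydig cells. Summed markers of Leydig cells, the LH-responsive steroid cells, were 274 to 425 CPM (counts scaled to library size) in vehicle, 1805 to 2209 at 48 h and 1352 to 1684 at 96 h (7 genes). Summed germ cell markers were 443 to 472 CPM in vehicle, 238 to 301 at 48 h and 216 to 321 at 96 h (10 of 11 genes measured). Summed Sertoli cell markers were 1798 to 2246, 2018 to 2615 and 1862 to 2256 CPM in the same order (10 genes). Summed markers of peritubular myoid cells, the contractile cells around the tubules, were 353 to 391, 567 to 868 and 490 to 1124 CPM in that order (5 genes, of which 2 rose at 48 h and 3 at 96 h against vehicle). Summed macrophage markers were 77.7 to 156, 114 to 180 and 144 to 273 CPM (6 genes, of which 2 rose at 96 h against vehicle). Against vehicle, 2 of the germ cell markers fell at 48 h and 7 at 96 h. Of all loci that stand for a symbol, 14.5% and 17.2% were called higher at 48 h and 96 h against vehicle, and 3.3% and 6.89% lower. Of the Sertoli cell markers, 2 rose at 48 h (20%) and 3 at 96 h (30%) against vehicle. In the main test, described below, 0 of them fell, whereas exactTest and DESeq2 each called 1 of them lower at 96 h. The sums do not show such differences between markers. No measured marker of any list was at 0 in every library. The part of these shifts in the results that follow was not tested, and in whole tissue more cells of a type and more RNA per cell cannot be told apart.

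DNA synthesis needs a supply of 4 deoxynucleoside triphosphates, and the enzymes studied here set that supply. Ribonucleotide reductase, built of the large subunit RRM1 with a small subunit, removes the 2′ hydroxyl of ribonucleoside diphosphates. Its small subunit is RRM2 in S phase, whereas RRM2B serves non-dividing cells and DNA repair. Thymidylate synthase (TYMS) makes dTMP from dUMP, DTYMK phosphorylates dTMP, and DUT hydrolyses dUTP, which keeps uracil out of DNA and yields dUMP. The kinases TK1 and DCK salvage thymidine and deoxycytidine, and DCTPP1 hydrolyses dCTP and its modified forms. In the juvenile testis, Sertoli cells and spermatogonia still divide, and FSH is known to act on Sertoli cells.

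In these testes the S-phase enzymes RRM2, TYMS and TK1 rose at 48 h and at 96 h against vehicle, with 96 h levels 7.48, 6.85 and 9.87 times the vehicle level. Between 96 h and 48 h, RRM2 and TYMS passed the test with all animals but not without several single animals, and TK1 did not pass. DTYMK, DUT and DCTPP1 also rose at both times by smaller factors, 1.40 to 1.84. DCK passed the test at 96 h and not at 48 h. RRM2B had similar values in all groups. Counts were tested with edgeR's quasi-likelihood test (Benjamini-Hochberg adjustment over all 26813 loci at 0.05), and levels are TMM-scaled CPM.

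At 48 h against vehicle, 6 of the 8 members rose and 0 fell, where 14.5% of all symbol loci were called higher and 3.3% lower. Their median log2 fold change was 0.69, beside a median of 0.07 over all symbol loci. The 96 h animals had 7 members higher and 0 lower than vehicle, where 17.2% of symbol loci were called higher and 6.89% lower, and the medians were 1.19 for the members and 0.08 for all symbol loci. Between 96 h and 48 h, 3 members rose (TYMS, RRM2 and DCK) and 0 fell, where 1.26% of symbol loci were called higher and 0.44% lower. The medians in that comparison were 0.66 for the members and -0.02 for all symbol loci. No member was lower at an unadjusted p under 0.05 in any comparison (0 of 8), nor did exactTest, DESeq2 or limma voom call one lower (0 each). The comparisons with vehicle share their vehicle libraries, and the comparison of 96 h with 48 h shares libraries with both. The members and the gene lists below were chosen with earlier results of these data known. Their counts beside the shares of all symbol loci are therefore descriptions and not a test of the lists.

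The members called at 48 h were 3 without both animals over 20 months, against 6 with all animals. They were 4 without TP07, TP08, TP09 or TP12 alone. In the comparison of 96 h with 48 h, 0 members rose without both animals over 20 months, 0 without TP08, TP10 or TP17, and 1 without TP12, TP15 or TP18. Only 2 rose there without TP09 or TP16, and 4 rose without TP07. The members called at 96 h against vehicle were 7 with any single animal left out.

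**Figure D1:**
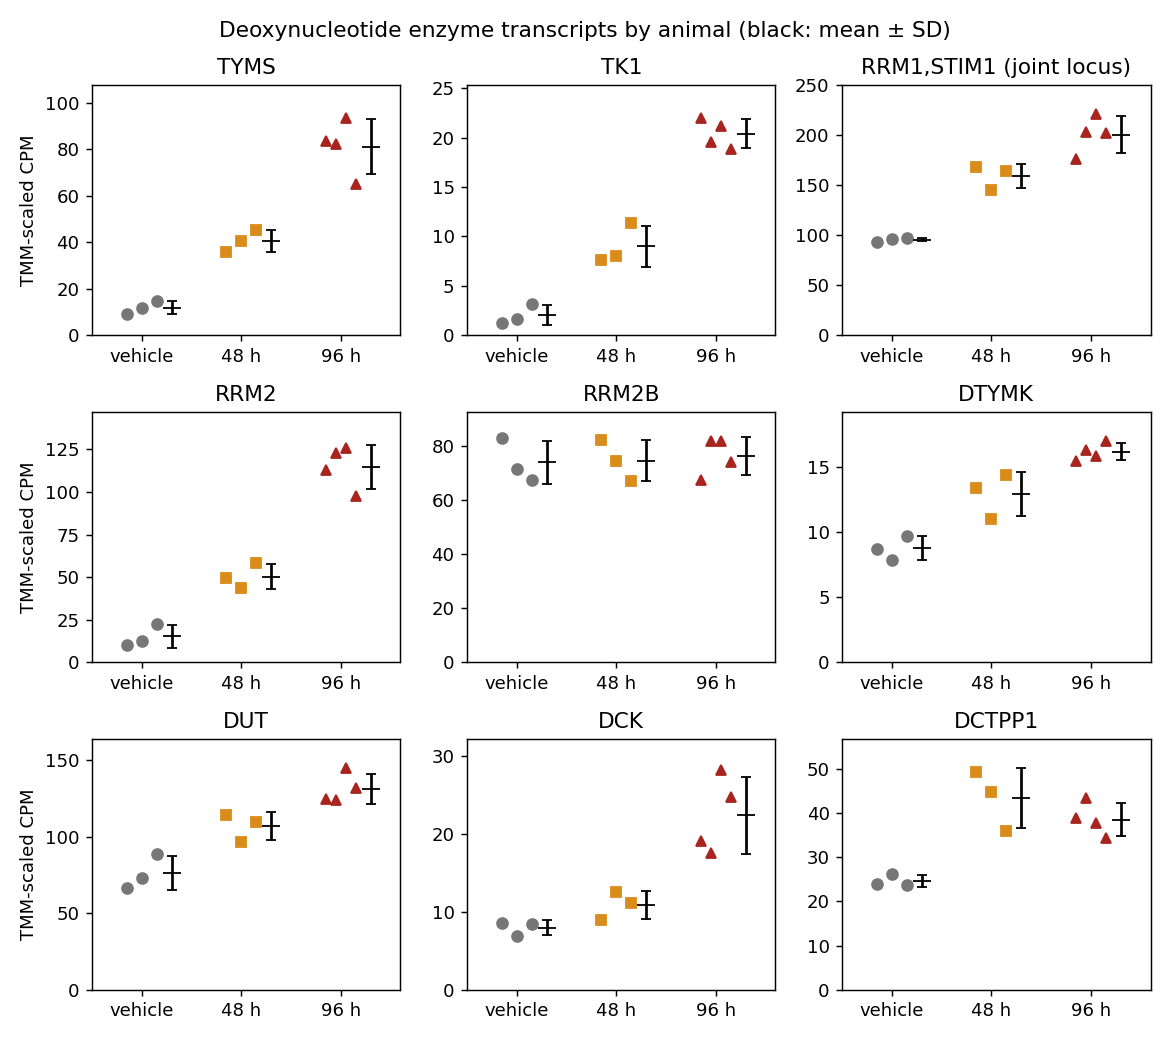
TMM-scaled CPM (vertical axes, from 0) of the 8 members and of the RRM1,STIM1 joint locus in each of the 10 animals, by group (vehicle, 48 h, 96 h); black bars give the mean ± SD. RRM2, TYMS and TK1 form 3 separate levels, RRM2B forms 1, and DCTPP1 has overlapping values at 48 h and 96 h.

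RRM2, the S-phase small subunit, lies on chromosome 13, 10118739 to 10128947 on the plus strand of rheMac8, where the deposited transcript models give it 1 model of 11 exons. It measured 10.4, 12.8 and 22.7 CPM in vehicle animals TP07, TP09 and TP11. At 48 h it measured 49.3, 43.6 and 58.3 CPM in TP08, TP10 and TP12. At 96 h it measured 113, 123, 126 and 97.3 CPM in TP15 to TP18. The 3 groups did not overlap, and TP11 stood apart as the highest of the vehicle animals. Means ± SD were 15.3 ± 6.52 CPM over 3 vehicle animals, 50.4 ± 7.39 CPM over 3 animals at 48 h and 115 ± 12.8 CPM over 4 animals at 96 h. RRM2 rose at 48 h against vehicle by 1.72 ± 0.25 on the log2 scale (SE; edgeR adjusted p = 0.00257). The rise at 96 h against vehicle was 2.90 ± 0.25 (edgeR adjusted p = 0.000198). These rises ranked 76 and 25 by size among the rises of all symbol loci.

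Between the treated groups, RRM2 was higher at 96 h than at 48 h with a log2 difference of 1.19 ± 0.23 (edgeR adjusted p = 0.0438). That call sits near the threshold. It was lost when any 1 of TP08, TP09, TP10, TP12, TP15, TP16, TP17 or TP18 was left out, with log2 fold changes of 1.09 to 1.30 and adjusted p of 0.0556 to 0.197. It was also lost under upper-quartile scaling (adjusted p = 0.0516), with age as a covariate (1.05, adjusted p = 0.124) and without both animals over 20 months (1.17, adjusted p = 0.122).

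RRM2B, the small subunit of non-dividing cells, lies on chromosome 8, 100917959 to 100956481 on the minus strand of rheMac8, with 3 transcript models of 9 to 10 exons. It measured 83.0, 71.5 and 67.6 CPM in the vehicle animals. It measured 82.4, 74.4 and 67.3 CPM at 48 h, and 67.6, 82.0, 81.9 and 74.1 CPM at 96 h. The 3 groups covered the same range, and it was the only member that overlapped between groups in every comparison. Means ± SD were 74.0 ± 7.97 CPM over the vehicle animals, 74.7 ± 7.51 CPM over those at 48 h and 76.4 ± 6.97 CPM over those at 96 h. The log2 fold change was 0.01 at 48 h against vehicle (95% interval -0.24 to 0.26, edgeR adjusted p = 0.957). For 96 h over vehicle it was 0.05 (-0.19 to 0.28, adjusted p = 0.793), which bounds the ratio of 96 h to vehicle between 0.877 and 1.21. The corresponding value for 96 h against 48 h was 0.03 (-0.20 to 0.27, adjusted p = 0.884). These signs are not stable: under upper-quartile scaling, which moved the median of all symbol loci by -0.13 and -0.15 at 48 h and 96 h against vehicle, the RRM2B values were -0.11 and -0.10. Leaving out TP08, TP09 or TP11 gave -0.06, -0.01 and -0.05 at 48 h against vehicle, and leaving out TP11 gave -0.02 at 96 h against vehicle. For 96 h against 48 h, leaving out TP12 gave -0.04, and leaving out TP16 or TP17 gave values just under 0 (-0.00492 and -0.00223).

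The large subunit RRM1 could be read only in the locus it shares with STIM1, a calcium sensor of the endoplasmic reticulum. That locus spans 63298766 to 63564179 on chromosome 14 (minus strand), with 9 transcript models, of which 4 are named RRM1 and 5 STIM1. One of the RRM1 models has 29 exons and runs across both genes. The joint locus measured 93.8, 96.4 and 97.1 CPM in vehicle animals. It measured 168, 146 and 164 CPM at 48 h and 176, 203, 221 and 202 CPM at 96 h. The 3 groups did not overlap, and the vehicle animals were close to one another. The log2 fold change of the joint locus was 0.74 ± 0.10 at 48 h against vehicle (SE; edgeR adjusted p = 0.00124) and 1.07 ± 0.09 at 96 h against vehicle (adjusted p = 0.000147). The joint locus differed by 0.33 ± 0.09 between 96 h and 48 h (adjusted p = 0.0965), and DESeq2 called that difference (adjusted p = 0.0267).

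Because the small subunits share a library, their ratio needs no scaling between libraries. Per kb of exon, the ratio of RRM2 to RRM2B counts was 0.251, 0.358 and 0.672 in vehicle animals TP07, TP09 and TP11. At 48 h it was 1.20, 1.17 and 1.73, and at 96 h it was 3.34, 2.99, 3.08 and 2.63. RRM2B was thus the more abundant small-subunit transcript per length in every vehicle testis, and RRM2 in every treated testis. Without division by length, RRM2B still had more counts at 48 h, with ratios of 0.599, 0.586 and 0.865 in TP08, TP10 and TP12. At 96 h the ratio of counts was 1.31 to 1.67. Which subunit leads at 48 h therefore depends on the exonic length, taken over all transcript models. The factors between groups do not depend on that length. The ratio differed by a factor of 3.43 between 48 h and vehicle (two-sided exact permutation p = 0.1, the smallest that 3 against 3 animals allow). It differed by 7.64 between 96 h and vehicle and by 2.23 between 96 h and 48 h (exact permutation p = 0.0571 for both, the smallest that these group sizes allow; p = 0.0857 adjusted over the 6 ratio comparisons). No group overlapped another, and with these numbers of animals no exact test can reach 0.05.

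The ratio of RRM2 to the RRM1,STIM1 joint locus, per kb of exon, was 0.287, 0.344 and 0.605 in vehicle animals. It was 0.758, 0.775 and 0.920 at 48 h and 1.66, 1.56, 1.47 and 1.25 at 96 h. The factors were 2.08 for 48 h over vehicle (exact permutation p = 0.1), 3.77 for 96 h over vehicle and 1.81 for 96 h over 48 h (both exact permutation p = 0.0571). All 3 comparisons were without overlap. The STIM1 reads in the denominator, whose share is not known, limit what this ratio says of RRM1.

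**Figure D2:**
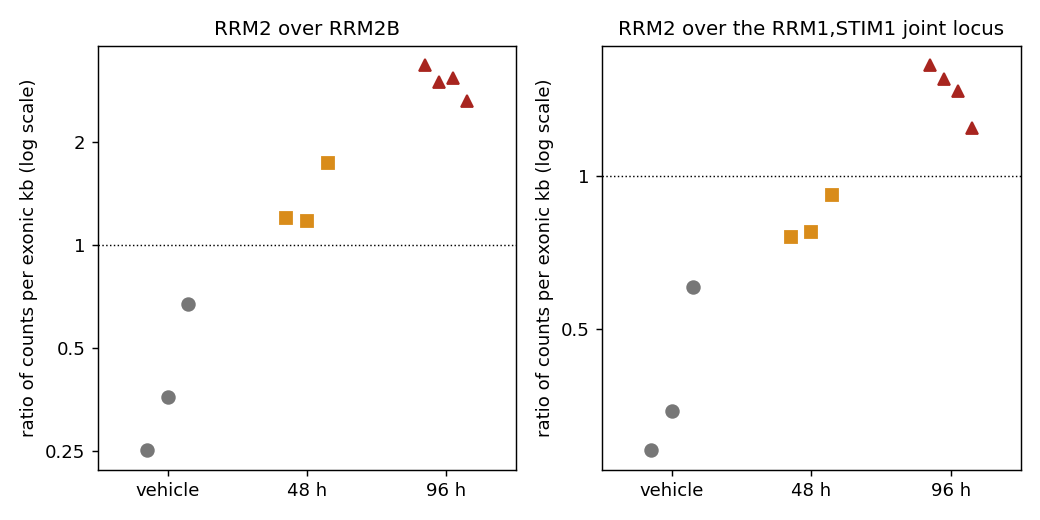
Ratio of counts per kb of exon in each animal, on log axes, for RRM2 over RRM2B (left) and RRM2 over the RRM1,STIM1 joint locus (right), by group (vehicle, 48 h, 96 h). The dotted line marks equal counts per kb; RRM2 over RRM2B lies between 0.251 and 0.672 in vehicle, 1.17 and 1.73 at 48 h, and 2.63 and 3.34 at 96 h.

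TYMS, the enzyme of thymidylate synthesis and the target of fluorouracil, lies on chromosome 18, 8832709 to 8848837 on the minus strand of rheMac8, with 4 transcript models of 7 to 8 exons. It measured 9.05, 11.7 and 14.8 CPM in vehicle animals TP07, TP09 and TP11. It measured 35.7, 40.4 and 45.2 CPM in TP08, TP10 and TP12 at 48 h, and 83.5, 82.1, 93.6 and 65.2 CPM in TP15 to TP18 at 96 h. The groups did not overlap, and the lowest 96 h animal, TP18, was above the highest 48 h animal. TYMS rose by 1.77 ± 0.18 on the log2 scale at 48 h against vehicle (SE; edgeR adjusted p = 0.000502). The value at 96 h against vehicle was 2.78 ± 0.18 (adjusted p = 6.3e-05). TYMS was also higher at 96 h than at 48 h, by 1.00 ± 0.17 (adjusted p = 0.0261). This last call was lost without TP08, TP10, TP15 or TP17 (log2 fold changes 0.92 to 1.00, adjusted p 0.0503 to 0.132). It was also lost with age as a covariate (0.87, adjusted p = 0.0503) and without both animals over 20 months (0.92, adjusted p = 0.0976).

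ENOSF1 overlaps TYMS on the opposite strand by 116 bases, or 2.54% of the exonic length of TYMS. How the authors' counting treated strand is not given in the sources used here. ENOSF1 did not pass the test in any comparison, with 12.3 to 26.6 CPM over all animals, and its log2 fold changes were -0.22, -0.25 and -0.04 for 48 h against vehicle, 96 h against vehicle and 96 h against 48 h.

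DUT, which supplies dUMP to TYMS and limits dUTP, lies on chromosome 7, 24655562 to 24667804 on the plus strand, with 6 transcript models of 5 to 7 exons. It measured 66.7, 73.1 and 88.5 CPM in vehicle animals. It measured 115, 96.7 and 109 CPM at 48 h and 125, 124, 145 and 132 CPM at 96 h. The groups did not overlap, though the highest vehicle animal (TP11) came near the lowest 48 h animal (TP10). DUT rose by 0.49 ± 0.12 on the log2 scale at 48 h against vehicle (SE; edgeR adjusted p = 0.0192) and by 0.79 ± 0.11 at 96 h against vehicle (adjusted p = 0.0013). The difference between 96 h and 48 h, 0.30 ± 0.11, did not pass (adjusted p = 0.173). The 48 h call was lost without TP07, TP08, TP09 or TP12 (0.40 to 0.47, adjusted p 0.0606 to 0.0802), under upper-quartile scaling (0.36, adjusted p = 0.0616) and without both animals over 20 months (0.35, adjusted p = 0.195). A further 2 loci carry names of putative inactive dUTPase copies, with mean counts of 232.1 and 58.2 beside 2828.4 for DUT. Whether reads of DUT and of these copies were split by the counting was not tested, and the DUT level is uncertain to that extent.

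DTYMK, the kinase that turns dTMP into dTDP, lies on chromosome 12, 124533058 to 124544627 on the minus strand, with 4 transcript models of 4 to 5 exons. It measured 8.69, 7.86 and 9.69 CPM in vehicle animals. It measured 13.4, 11 and 14.3 CPM at 48 h and 15.4, 16.2, 15.8 and 17 CPM at 96 h. The groups did not overlap, and the 96 h animals lay close to one another. DTYMK rose by 0.56 ± 0.15 on the log2 scale at 48 h against vehicle (SE; edgeR adjusted p = 0.0303) and by 0.88 ± 0.14 at 96 h against vehicle (adjusted p = 0.00251). The difference between 96 h and 48 h was 0.32 ± 0.14 (adjusted p = 0.217). The 48 h call was lost without TP07, TP08, TP09 or TP12 (0.48 to 0.55, adjusted p 0.0763 to 0.110), under upper-quartile scaling (0.43, adjusted p = 0.0835), in a fit of the compared groups alone (0.60, adjusted p = 0.0508) and without both animals over 20 months (0.53, adjusted p = 0.189). The second row named DTYMK is a single-exon model on the opposite strand that overlaps 19.5% of the exonic length. It held 1.70 to 2.99 CPM over all animals and did not pass the test in any comparison.

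TK1, the cytosolic thymidine kinase of S phase, lies on chromosome 16, 71992996 to 72007918 on the minus strand, with 1 transcript model of 7 exons. It had the largest fold changes of the members against vehicle, and by mean CPM it was the lowest member in vehicle and at 48 h. It measured 1.29, 1.68 and 3.20 CPM in vehicle animals TP07, TP09 and TP11. All were above the 0.137 CPM, without TMM scaling, that 3 counts amount to in the shallowest library. It measured 7.62, 8.01 and 11.3 CPM at 48 h and 22.0, 19.5, 21.2 and 18.9 CPM at 96 h. The groups did not overlap. TK1 rose by 2.12 ± 0.30 on the log2 scale at 48 h against vehicle (SE; edgeR adjusted p = 0.00175) and by 3.30 ± 0.30 at 96 h against vehicle (adjusted p = 0.000182). These rises ranked 38 and 15 by size among the rises of all symbol loci.

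The TK1 difference between 96 h and 48 h was 1.18 ± 0.27 with a 95% interval of 0.60 to 1.76, and it did not pass (edgeR adjusted p = 0.0637). It passed with exactTest (adjusted p = 0.00374), DESeq2 (adjusted p = 0.000501), limma voom (adjusted p = 0.0237), a fit of these groups alone (adjusted p = 0.0319) and age class as a block (adjusted p = 0.0237). In that block the 96 h animals share a class with only TP09 and TP10 of the other groups. The TK1 difference also passed without TP07 (adjusted p = 0.0405) or TP11 (adjusted p = 0.0195), vehicle animals that enter only through the shared spread. AFMID overlaps TK1 on the opposite strand by 164 bases, or 9.69% of the exonic length of TK1. AFMID held 0.661 to 1.89 CPM over all animals and did not pass the test in any comparison.

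DCK, the deoxycytidine kinase that also phosphorylates deoxyadenosine and deoxyguanosine, lies on chromosome 5, 63579494 to 63611123 on the minus strand, with 4 transcript models of 6 to 7 exons. It measured 8.59, 6.87 and 8.46 CPM in vehicle animals. It measured 8.97, 12.6 and 11.2 CPM at 48 h and 19.2, 17.5, 28.2 and 24.8 CPM at 96 h. TP08, the 48 h animal aged 22 months, was close to the vehicle animals, and every 96 h animal was above every other animal. The log2 fold change at 48 h against vehicle was 0.45 ± 0.21, with a 95% interval of 0.00 to 0.90, and did not pass (edgeR adjusted p = 0.18). DCK rose at 96 h by 1.49 ± 0.20 against vehicle (adjusted p = 0.00103) and by 1.04 ± 0.19 against 48 h (adjusted p = 0.034).

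The DCK call between 96 h and 48 h was lost without TP08, TP10, TP11, TP12, TP17 or TP18 (0.91 to 1.15, adjusted p 0.0532 to 0.166). It was lost without both animals over 20 months (0.92, adjusted p = 0.199), with age as a covariate (1.01, adjusted p = 0.0887), with age class as a block (1.03, adjusted p = 0.232) and in a fit of these groups alone (1.02, adjusted p = 0.063). The value kept its sign and stayed between 0.91 and 1.15 in all 23 alternatives.

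DCTPP1, the pyrophosphatase that clears dCTP and modified dCTP, lies on chromosome 20, 28023278 to 28029611 on the minus strand, with 1 transcript model of 3 exons. It measured 23.9, 26.3 and 23.8 CPM in vehicle animals. It measured 49.4, 44.9 and 36.1 CPM at 48 h and 38.9, 43.4, 37.7 and 34.3 CPM at 96 h. Treated animals were all above vehicle animals, and the treated groups overlapped. DCTPP1 rose by 0.82 ± 0.13 on the log2 scale at 48 h against vehicle (SE; edgeR adjusted p = 0.00329) and by 0.65 ± 0.12 at 96 h against vehicle (adjusted p = 0.00644). Between 96 h and 48 h its value was -0.17 with a 95% interval of -0.44 to 0.09 (adjusted p = 0.42). It was the only member with a negative value there. The 48 h call was lost without both animals over 20 months (0.69, adjusted p = 0.0502) and the 96 h call with age class as a block (0.57, adjusted p = 0.0522).

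**Figure D3:**
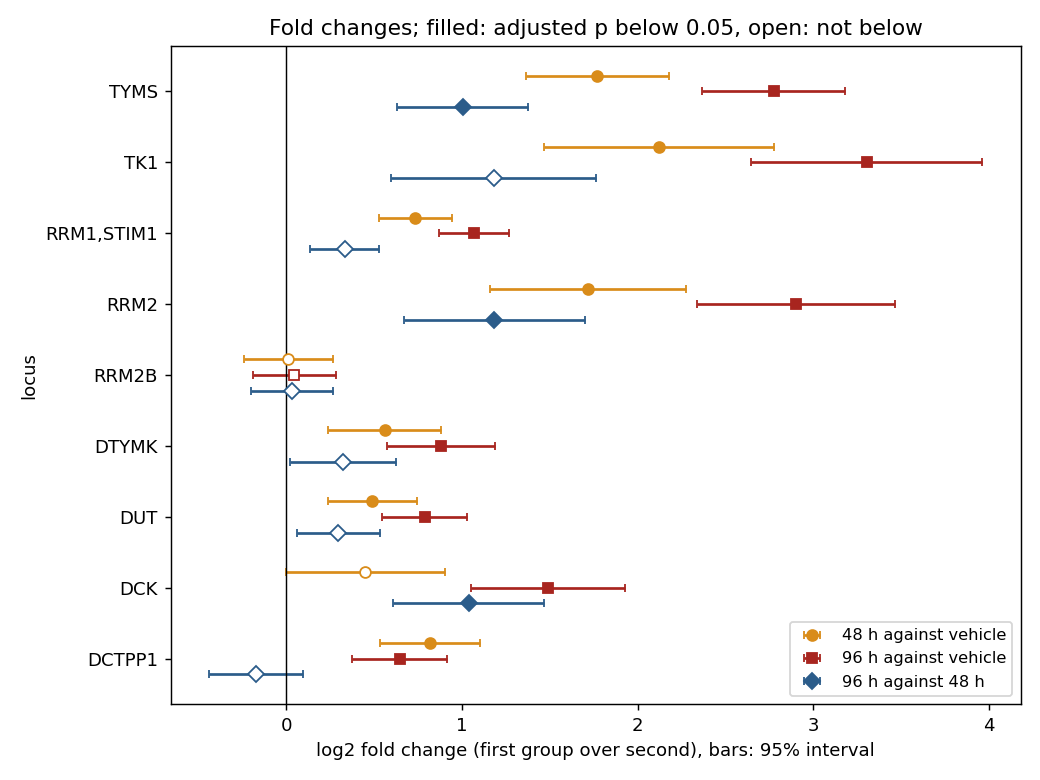
Log2 fold change (horizontal axis, the first group over the second) of each member and of the RRM1,STIM1 joint locus in the 3 comparisons, with 95% intervals as bars; filled symbols passed an adjusted p of 0.05 and open symbols did not. TK1, RRM2 and TYMS lie farthest to the right, the 3 intervals of RRM2B cover 0, and DCTPP1 is to the left of 0 at 96 h against 48 h.

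The members differed in how much of the 96 h rise was present at 48 h. On the log2 scale, 63.8% of the 96 h rise of TYMS, 64.2% of that of TK1 and 59.2% of that of RRM2 was present at 48 h. DTYMK with 63.5%, DUT with 62.2% and the joint locus with 68.8% were near these values. DCK had 30.3% and DCTPP1 had 127%. These shares are descriptions, since both rises are measured from the same vehicle libraries and no test of their difference was made.

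Without overlap, 7 of 8 members were higher at 48 h than in vehicle and 7 of 8 were higher at 96 h than in vehicle, where 28.7% and 24.7% of symbol loci were higher without overlap. Between 96 h and 48 h, 6 of 8 were higher without overlap, beside 8.4% of symbol loci. These counts too are descriptions, since the members were chosen with earlier results of these data known. Summed over the 8 members, levels were 212 to 239 CPM in vehicle, 332 to 361 at 48 h and 464 to 549 at 96 h. RRM2B made up 39.2%, 33.8% and 28.3% of that sum in vehicle animals TP07, TP09 and TP11, 19.1% to 22.8% at 48 h and 14.0% to 16.2% at 96 h. The share of RRM2 was 4.92% to 9.51% in vehicle, 13.2% to 16.5% at 48 h and 21.0% to 24.2% at 96 h.

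Per kb of exon, the order of the members changed with treatment. In vehicle, mean CPM per kb was 21.9 for DUT, 21.5 for DCTPP1 and 11.5 for RRM2B, then 6.84 for DTYMK, 4.77 for RRM2, 2.63 for DCK, 2.59 for TYMS and 1.21 for TK1. At 48 h it was 38.0 for DCTPP1, 30.8 for DUT, 15.7 for RRM2, 11.6 for RRM2B, 10.1 for DTYMK, 8.86 for TYMS, 5.31 for TK1 and 3.59 for DCK. At 96 h it was 37.9 for DUT, 35.7 for RRM2, 33.7 for DCTPP1, 17.8 for TYMS, 12.6 for DTYMK, 12.1 for TK1, 11.9 for RRM2B and 7.38 for DCK. RRM2 was the fifth of the 8 in vehicle and the second at 96 h.

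The authors' deposited table, made with an exact test on pairs of groups, gave the same log2 fold changes to 2 decimals for TYMS (1.77, 2.78 and 1.00). For TK1 at 96 h against 48 h, the authors' deposited table lists a false discovery rate of 0.00512, where the quasi-likelihood test did not call it. For the same comparison it lists 6.9e-05 for RRM2, 9.1e-05 for TYMS and 0.00345 for DCK. The quasi-likelihood test called these with larger adjusted p-values. For DTYMK at 48 h against vehicle, the authors' deposited table lists 0.113, where the quasi-likelihood test gave 0.0303.

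The members' rises stood beside those of other S-phase genes. Of 12 measured S-phase and division genes, 8 rose at 48 h against vehicle, 12 at 96 h against vehicle and 3 at 96 h against 48 h, and 0 fell in any comparison (edgeR quasi-likelihood test). In the same order, 14.5%, 17.2% and 1.26% of symbol loci were called higher. At an unadjusted p under 0.05 the falls in the list were 0, 0 and 1, and DESeq2 called 1 fall at 96 h against 48 h. The 48 h rises numbered 5 without TP08, TP09 or TP12, and 5 without both animals over 20 months. Those at 96 h against 48 h numbered 5 with exactTest, DESeq2 or limma voom, and 0 without TP08, TP10, TP15, TP16, TP17, TP18 or both animals over 20 months. MCM3, MCM6 and MCM2, subunits of the replicative helicase, had log2 fold changes of 1.45 ± 0.13, 0.96 ± 0.11 and 0.95 ± 0.11 at 48 h against vehicle. The 3 that rose between 48 h and 96 h were CDK1 at 1.64 ± 0.29, TOP2A at 1.73 ± 0.31 and MKI67 at 1.61 ± 0.30, a mitotic kinase, a topoisomerase and a marker of cycling cells. Summed over the list, levels were 424 to 592 CPM in vehicle, 790 to 1050 at 48 h and 1275 to 1439 at 96 h. TP11 had the highest sum among the vehicle animals, and it was also their highest for RRM2, TYMS and TK1.

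Because the helicase subunits mark licensed and replicating cells, 4 members were also set against the summed counts of MCM2 to MCM7 in the same library. This ratio was chosen after the values had been seen. These 4 genes had the largest log2 fold changes of the members at 96 h against 48 h, 1.00 to 1.19. DTYMK, DUT, RRM2B and DCTPP1 had 0.32 or less. The MCM sum was 298 to 368 CPM in vehicle, 583 to 766 at 48 h and 591 to 679 at 96 h, so its ranges at 48 h and 96 h overlapped. The percentages that follow are geometric means, taken on the log2 scale. TYMS counts were 3.48% of MCM counts in vehicle, 5.91% at 48 h and 12.7% at 96 h. TK1 counts were 0.571%, 1.30% and 3.22%, and RRM2 counts were 4.34%, 7.35% and 18%, in the same order. DCK counts were 2.38% in vehicle, 1.59% at 48 h and 3.47% at 96 h.

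Every 96 h animal was above every 48 h animal in each of these 4 ratios. The choice of genes favoured that separation, so the permutation p-values that follow are descriptions and not a test. The factors of 96 h over 48 h were 2.15 for TYMS, 2.48 for TK1, 2.45 for RRM2 and 2.19 for DCK (exact permutation p = 0.0571 for each, the smallest possible; p = 0.0857 adjusted over 12 comparisons). Those of 48 h over vehicle were 1.70 for TYMS, 2.28 for TK1 and 1.70 for RRM2 with all animals higher, and 0.668 for DCK with all animals lower (exact permutation p = 0.1 for each, the smallest possible). Those of 96 h over vehicle were 3.65, 5.63, 4.16 and 1.46 for TYMS, TK1, RRM2 and DCK (exact permutation p = 0.0571 for each).

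**Figure D4:**
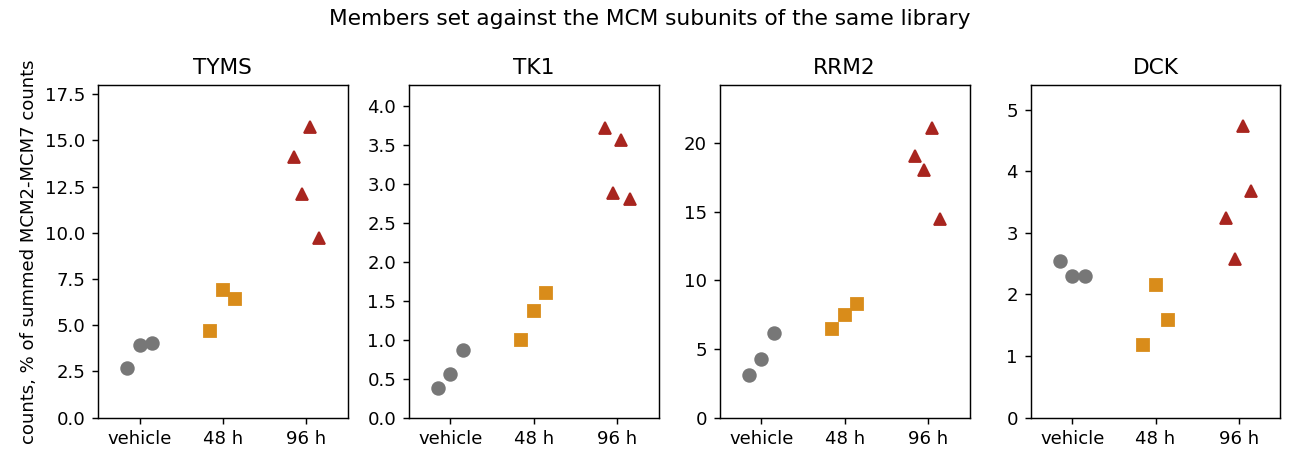
Counts of TYMS, TK1, RRM2 and DCK in each animal as a percentage of the summed MCM2 to MCM7 counts of the same library (vertical axes, from 0), by group (vehicle, 48 h, 96 h). TYMS, TK1 and RRM2 step up at each time, whereas DCK is lower at 48 h (geometric mean 1.59%) than in vehicle (2.38%) and highest at 96 h (3.47%).

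The other genes of nucleotide and folate metabolism had smaller medians than the members at both times. Of 70 measured genes with a locus of their own, 26 rose and 0 fell at 48 h against vehicle (37.1% called higher, where 14.5% of symbol loci were), with a median log2 fold change of 0.39. Against vehicle at 96 h, 24 rose and 2 fell, with a median of 0.33. There 34.3% were called higher, where 17.2% of symbol loci were called higher and 6.89% lower. The falls were AK4, a mitochondrial adenylate kinase, at -0.82 and FPGS, which adds glutamates to folates, at -0.67, both named after their values were seen. Between 96 h and 48 h, 1 rose (1.43%) and 1 fell (NME1), with a median of -0.08. Of symbol loci, 1.26% were called higher and 0.44% lower there, so the count of rises is near the share of all loci. At an unadjusted p under 0.05, 5 were higher and 16 lower in that comparison, and DESeq2 called 6 lower. At 48 h against vehicle 0 were lower at an unadjusted p under 0.05, and 0 with exactTest, DESeq2 or limma voom. The rises at 48 h were 13 without TP08, 15 without TP09 and 17 without TP11, 12 without both animals over 20 months and 16 under upper-quartile scaling. The falls at 96 h against vehicle were 1 without TP07, TP11, TP15 or TP17. For 96 h against 48 h, 0 rose when any single animal other than TP11 was left out. In that comparison 0 fell when any single animal other than TP16 was left out, and 3 fell without TP16.

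Folate genes feed TYMS with methylene-tetrahydrofolate. Against vehicle, 6 of 18 rose at 48 h (33.3%) and 7 of 18 at 96 h (38.9%), with 1 lower at 96 h. Of symbol loci, 14.5% and 17.2% were called higher at these times, and 6.89% lower at 96 h. MTHFD1 and MTHFD2, which interconvert one-carbon folates in the cytosol and mitochondria, rose by 0.83 ± 0.09 and 1.00 ± 0.15 at 48 h and by 0.80 ± 0.09 and 1.28 ± 0.14 at 96 h, against vehicle.

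Of 12 purine synthesis genes, 6 rose at 48 h (50%) and 4 at 96 h (33.3%) against vehicle, beside 14.5% and 17.2% of symbol loci. PRPS2, which makes the ribose donor PRPP, averaged 109 ± 17.4 CPM at 48 h against 26.9 ± 6.89 CPM in vehicle (SD, n = 3 each; log2 fold change 2.02 ± 0.28, edgeR adjusted p = 0.00206) and 124 ± 36.1 CPM at 96 h (n = 4; 2.21 ± 0.27 against vehicle, adjusted p = 0.000922). Its paralogue PRPS1 rose by 0.94 ± 0.16 at 48 h and 0.91 ± 0.15 at 96 h against vehicle. Of 5 pyrimidine synthesis genes, 2 rose at 48 h (CAD at 0.50 ± 0.11 and UMPS at 0.52 ± 0.12) and 1 at 96 h (CAD at 0.64 ± 0.10). The count at 96 h is 20% of these genes, near the 17.2% of all symbol loci called higher at 96 h. Between 96 h and 48 h, 0 of 12 purine and 0 of 5 pyrimidine genes passed edgeR's test, although at an unadjusted p under 0.05 there were 1 purine gene higher, 5 purine genes lower and 1 pyrimidine gene lower, and exactTest and DESeq2 each called 1 purine gene lower. ADSL, of purine synthesis, was 32.3 ± 6.54 CPM at 96 h (n = 4) and 53.3 ± 13.1 CPM at 48 h (n = 3), with an edgeR adjusted p of 0.0896.

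Of 35 genes of salvage and of nucleotide balance, 12 rose at 48 h and 12 at 96 h against vehicle (34.3% each), with 0 and 1 lower. Of symbol loci, 14.5% and 17.2% were called higher in these comparisons, and 3.3% and 6.89% lower. NME1, a nucleoside diphosphate kinase, averaged 51.4 ± 6.11 CPM at 48 h against 22.8 ± 0.665 CPM in vehicle (SD, n = 3 each; log2 fold change 1.17 ± 0.12, edgeR adjusted p = 0.000499). The 96 h animals averaged 34.7 ± 3.55 CPM (n = 4), higher than in vehicle by 0.61 ± 0.11 (adjusted p = 0.00552) and lower than at 48 h by a log2 fold change of -0.56 ± 0.11 (adjusted p = 0.0375). NUDT1, which clears oxidised purine nucleotides, and HPRT1, of purine salvage, rose by 1.03 ± 0.17 and 1.18 ± 0.21 at 96 h against vehicle. TK2 and DGUOK, the mitochondrial counterparts of TK1 and DCK, did not pass in any comparison. They were named after their values were seen. TK2 averaged 73.6 ± 4.83 CPM in vehicle, 78.0 ± 3.43 at 48 h and 71.2 ± 7.02 at 96 h, and DGUOK averaged 23.3 ± 1.43, 25.8 ± 2.39 and 19.3 ± 1.51 CPM in the same order (SD, n = 3, 3 and 4). SAMHD1, which breaks down deoxynucleoside triphosphates, rose by 0.54 ± 0.13 at 48 h and by 0.45 ± 0.12 at 96 h against vehicle, and was also named after its values were seen.

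RRM2 and TYMS are targets of E2F factors. Of 12 measured genes of E2F factors, pocket proteins and their regulators, 4 rose at 48 h and 8 at 96 h against vehicle. Of symbol loci, 14.5% and 17.2% were called higher in these comparisons. The genes of the list called at 48 h were 7 with DESeq2, 2 without TP07, TP08 or TP12, 1 without TP09 and 0 without both animals over 20 months. Those called at 96 h were 8 with any single animal left out. E2F7, a repressor of the family, averaged 2.70 ± 0.819 CPM in vehicle, 4.71 ± 1.45 at 48 h and 12.9 ± 1.16 at 96 h (SD, n = 3, 3 and 4), and it rose at 96 h against vehicle (2.26 ± 0.27, edgeR adjusted p = 0.000554) and against 48 h (1.45 ± 0.26, adjusted p = 0.0287). In that last comparison 2 genes of the list rose with all animals, E2F7 and CDC20 (1.40 ± 0.21, edgeR adjusted p = 0.0157). Of symbol loci, 1.26% were called higher there. The rises were 4 with exactTest, 5 with DESeq2, 1 without TP15 or TP18, and 0 without TP08, TP10, TP17 or both animals over 20 months. The falls were 0 in that comparison, and 1 with DESeq2. At an unadjusted p under 0.05, 2 were lower there (E2F5 at -0.46 and E2F6 at -0.32), and 1 was lower at 96 h against vehicle. CDC20, which is itself neither an E2F factor nor a pocket protein, was also among the 8 called at 96 h against vehicle.

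The genes whose profile over the 10 animals was closest to each member were found by the root-mean-square difference of mean-centred log2 CPM among 13848 genes. RRM2 and TYMS had each other among their closest 3 (0.176), and KIAA0101, a partner of PCNA, was first for RRM2 (0.139) and second for TYMS (0.192). For TK1 the closest were KIAA0101 (0.209), RRM2 (0.212) and the histone gene HIST1H2BO (0.214). For scale, the profiles of RRM2, TYMS and TK1 themselves had a root-mean-square of 1.27, 1.18 and 1.44 about their means. DCK was closest to the histone genes HIST2H2AB (0.204) and H2BC21 (0.204) and to SMC4, of condensin (0.209), with 0.67 for its own profile.

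The members with smaller changes lay closest to other genes. DTYMK was closest to POLD1, the catalytic subunit of DNA polymerase delta (0.0821), against 0.383 for its own profile. DUT was closest to IFT80 (0.0779) and SLBP, which binds histone mRNA (0.0857), against 0.352. The joint locus was closest to POLE, of DNA polymerase epsilon (0.0945), DCTPP1 to SLC31A1, a copper transporter (0.0902), and RRM2B to KPNA4, an importin (0.0574). RRM2B had a root-mean-square of 0.121 about its own mean, so a small difference from another gene says only that both varied little. These values describe 10 animals that differ mainly by treatment, and no test was made on them.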

How the data were processed

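The submitters' processing notes list HTSeq 0.6.1p1, Cufflinks 2.2.1, TopHat2 2.1.1 with Bowtie2 2.2.8, cutadapt 1.9.1, edgeR and the build rheMac8; the strand setting of the counting is not given in the sources used here. The labels' protocols name a stranded total RNA kit. For each of the 10 libraries the authors deposited raw counts by locus. The deposited CPM values equal each count divided by a library total. Log2 fold changes and p-values deposited by the authors are quoted as theirs.

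One fit of group means over all libraries used glmQLFit (robust) and glmQLFTest of edgeR 4.0.16 (R 4.3.3) after TMM scaling. The biological coefficient of variation was 0.259, and filterByExpr and a minimum of 10 counts in 3 libraries each removed 0 loci. SEs come from the F statistic, and 95% intervals from the SE and the test's degrees of freedom. CPM values are TMM-scaled. The floor of 3 counts (0.137 CPM in the shallowest library, by its total without TMM scaling) covers counting error only. Ratios were tested by exact permutation over animals (scipy 1.17.1), two-sided. Replicates differed by more than sampling noise (chi-square per degree of freedom 15.8 to 49.4). The loci in the table hold 98.5% to 99.0% of all counted reads, and 8161 of 26813 loci carry no name. Coordinates are exon limits of the deposited transcript models on rheMac8, 1-based; chromosome numbers were assigned by the symbols on each sequence, of which 98.96% to 100% matched a RefSeq gene table (assembly T2T-MMU8v2.0). Exonic length is the union of exons. The fit was checked on simulated counts.

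The members and gene lists were chosen with earlier results of these data known. The design counted 9 members, but RRM1 has no locus of its own, so 8 are counted. Named by rule were all members, up to 3 called genes per pathway list with the smallest p (or up to 2 as values), and the 3 genes closest to each member among genes averaging at least 0 in log2 CPM. Some genes that this rule named are not reported here. NME3, IMPDH2 and MTHFD2L were in joint loci and left out. So were E2F1, E2F4, CCNF and FZR1 of the E2F list (12 of 16 measured) and PCNA and CCNA2 of the S-phase list (12 of 14 measured). Alternatives covered scaling, filters, exactTest, DESeq2 1.42.0, voom in limma 3.58.1, fits of the compared groups alone, age, summed loci, a threshold of 0.01 and omission of animals. Those of the ratios to MCM counts were added after seeing the data.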

Additional observations from a re-analysis of the deposited data

Results flagged for a closer look

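For 3 members the change from vehicle differed between 48 h and 96 h of treatment, as tested by the contrast of 96 h with 48 h in edgeR's quasi-likelihood test. TYMS was higher at 96 h than at 48 h by a log2 fold change of 1.00 (adjusted p = 0.0261), on top of a rise of 1.77 at 48 h against vehicle. RRM2 was higher at 96 h than at 48 h by 1.19 (adjusted p = 0.0438), on top of 1.72. DCK was higher at 96 h than at 48 h by 1.04 (adjusted p = 0.034), where its 48 h value of 0.45 against vehicle had not passed. In each gene all 4 animals at 96 h were above all 3 animals at 48 h. All 96 h animals were 14 months old, whereas the 48 h animals were 14 to 22 months old. Without both animals over 20 months the values were 0.92 for TYMS, 1.17 for RRM2 and 0.92 for DCK, and none of the 3 passed. TK1 had a difference of 1.18 between 96 h and 48 h that did not pass (adjusted p = 0.0637), so it is not shown to differ from these 3 genes. Only the 96 h group was searched for an animal far from the others, and none was found among the members. With 4 animals such a search can find little, so no conclusion is drawn from it.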

How the results depend on the processing

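The rises of TYMS, TK1 and RRM2 against vehicle passed in all 23 alternatives at both times, with log2 fold changes of 1.61 to 1.97, 1.87 to 2.6 and 1.5 to 2.12 at 48 h and of 2.61 to 2.97, 3.05 to 3.78 and 2.69 to 3.30 at 96 h. Of 621 member values under alternatives, including those of the joint locus, 557 kept their direction and their side of the threshold, 47 no longer passed, 8 newly passed and 9 changed sign. The 9 were all of RRM2B, which passed in none: -0.114 and -0.102 at 48 h and 96 h against vehicle under upper-quartile scaling, and with single animals left out ranges of -0.0633 to 0.102 (48 h against vehicle, below 0 without TP08, TP09 or TP11), -0.0159 to 0.135 (96 h against vehicle, below 0 without TP11) and -0.0366 to 0.109 (96 h against 48 h, below 0 without TP12, TP16 or TP17). Members called higher at 48 h were 3 without both animals over 20 months and 4 to 6 with single animals left out. At 96 h against 48 h they were 0 with age as a covariate, 0 without both animals over 20 months, 0 at an adjusted p of 0.01 and 0 to 4 with single animals left out. Each fit without animals has fewer samples.

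Other nucleotide and folate genes called higher at 48 h were 16 under upper-quartile scaling, 12 without both animals over 20 months, 12 at 0.01 and 13 to 27 without single animals. At 96 h against vehicle, 15 rose with age class as a block, 15 at 0.01 and 18 to 25 without single animals. Falls there were 5 under upper-quartile scaling, 1 with age as a covariate, 1 with age class as a block, 1 without both animals over 20 months, 1 at 0.01 and 1 to 2 without single animals. At 96 h against 48 h, 0 rose in the fit of the groups alone, with age as a covariate, without both animals over 20 months or at 0.01, 2 rose with age class as a block, and 0 to 1 rose without single animals. Falls there were 2 with exactTest, 6 with DESeq2, 0 in the fit of the groups alone, with age as a covariate, with age class as a block, without both animals over 20 months or at 0.01, and 0 to 3 without single animals. The cause of these shifts was not tested.

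The log2 differences of the RRM2 to RRM2B ratio without single animals were 1.45 to 2.17 (48 h against vehicle), 2.61 to 3.32 (96 h against vehicle) and 1.06 to 1.34 (96 h against 48 h), and those of RRM2 to the joint locus 0.84 to 1.37, 1.69 to 2.23 and 0.80 to 0.95. The ratios to MCM counts kept their sign in every fit. The groups share no animal numbers, so no fit with a replicate block was made. Age class as a block matches TP07 with TP08 and TP11 with TP12, and puts all 96 h animals in a class with TP09 and TP10. Of the other groups, the 96 h animals thus share a class with only TP09 and TP10. Counts follow in the order 48 h against vehicle, 96 h against vehicle and 96 h against 48 h. With this block, 6, 6 and 3 members were called higher (6, 7 and 3 without it). The S-phase genes were 11, 12 and 5 (8, 12 and 3 without it) and the E2F genes 6, 8 and 4 (4, 8 and 2 without it). Group sizes limit every exact test here to p-values of 0.0571 or 0.1.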
